A study of Homo sapiens with 20 samples.

Results

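Polyadenylated transcript levels in OPM2 cells given ricolinostat for 2 h were compared with those in OPM2 cells given panobinostat for 2 h. OPM2 is an established human multiple myeloma line, and the labels give bone marrow as its tissue. The comparison used the 2 libraries labelled 100 nM ricolinostat at 2 h and the 2 labelled 10 nM panobinostat at 2 h, 4 of the 20 RNA-seq libraries of the series. The 2 DMSO libraries served as the vehicle reference, and the libraries of the same inhibitors at 5 h and 20 h were used for 1 question on time. No genetic change to the cells is given in the labels. All groups used here therefore differ in inhibitor, dose or time, and they share the line and the culture medium. Each group had 2 independent biological replicates, as the design text states. The doses differed, so that compound and dose cannot be told apart in any value given here. The labels conflict on the ricolinostat dose, which is 100 nM in the titles, the protocol and the design text and 10 nM under treatment. The DMSO libraries carry no harvest time, and the batch is given as unknown.

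Histone deacetylases (HDACs) take acetyl groups off lysines of histones and of other proteins, and their inhibitors raise acetylation within a short time of exposure. Panobinostat and ricolinostat are both hydroxamic acids, in which the hydroxamate binds the catalytic zinc. They differ in the linker and in the cap that lies at the rim of the enzyme's pocket: panobinostat has a cinnamic linker and a methylindole cap, and ricolinostat has a straight alkyl linker and a diphenylaminopyrimidine cap. Panobinostat is known as a potent inhibitor of most zinc-dependent HDACs. Ricolinostat is known to prefer HDAC6, a cytoplasmic deacetylase of tubulin, and to inhibit the nuclear class I enzymes less potently.

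Total counts of the 4 libraries ran from 22665852 to 27868477, and all 4 held OPM2 transcripts. With ricolinostat and with panobinostat the plasma cell surface protein SDC1 stood at 687 and 699 CPM and 545 and 549 CPM, in CPM, a gene's count scaled to a common library total. FGFR3, which is overexpressed in this line, stood at 2059.5 and 2029.5 CPM and 1610.2 and 1644 CPM in the same groups. Marker lists of other cell types were summed in CPM of the unscaled total. Of 16 T and NK cell markers, 5 had no count in the 6 libraries at 2 h and in DMSO, among them CD3D and CD3E, and the summed level was 0.734 to 1.42 CPM with ricolinostat and 2.15 to 2.87 CPM with panobinostat. Of 13 myeloid markers 5 had no count, and the sum was 1.17 to 1.21 CPM with ricolinostat and 2.12 to 2.37 CPM with panobinostat. Of 12 stromal and endothelial markers 7 had no count, with sums of 2.02 to 2.39 CPM and 2.26 to 2.65 CPM. Of 12 erythroid markers 3 had no count, among them HBA1, with sums of 23.3 to 24.4 CPM and 22.1 to 23.5 CPM. Of 8 epithelial markers 6 had no count, and the sums were 0.0809 to 0.440 CPM and 0.397 to 0.431 CPM. Early B cell markers summed to 13.8 to 14.8 CPM with ricolinostat and 30.4 to 30.7 CPM with panobinostat, with MS4A1, CD22, RAG2 and VPREB1 at 0. In that list BCL6, a germinal centre repressor, was lower with ricolinostat than with panobinostat (log2 -2.25, adjusted p = 1.54e-22). Their part in the results below was not tested. In bulk RNA fewer cells of a kind and less RNA per cell cannot be told apart.

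Measured against sampling noise, the panobinostat replicates at 2 h differed from each other more than those of the other groups did. Their chi-square per degree of freedom over genes was 6.48, against 2.61 for ricolinostat at 2 h and 2.35 to 4.25 in the other groups. The immunoglobulin gene IGLC2 stood at 214 and 14.5 CPM in panobinostat replicates 1 and 2, and AHNAK, a very large scaffold protein, at 1243 and 1718 CPM. By the SD of the replicates' log2 difference over genes at 5 CPM or more the groups were closer, at 0.158 for panobinostat and 0.129 for ricolinostat at 2 h, against 0.157 and 0.151 at 5 h.

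Of 20957 genes tested, 2063 were higher and 1952 lower with ricolinostat than with panobinostat, which is 9.84% and 9.31% of the genes (edgeR quasi-likelihood test, Benjamini-Hochberg adjusted p under 0.05 over all genes). Among the 9981 genes at 5 CPM or more in a group, 19.2% were higher and 14.8% lower. This second pair of shares is the closer reference for the gene lists below whose members mostly reached 5 CPM. The 2 directions differed in size. At least 2-fold, 126 genes were higher (0.601%) and 467 lower (2.23%). Those counts were 75 and 357 without ricolinostat replicate 1, 81 and 370 with no filter on low counts, and 68 and 329 with DESeq2. The median log2 difference was 0.30 among the genes called higher and -0.44 among those called lower. The median over all genes was -0.01. Both inhibitors had moved many genes from DMSO by 2 h. With panobinostat 4353 genes were above DMSO (20.8%) and 3799 below it (18.1%), and with ricolinostat 3543 were above (16.9%) and 3049 below (14.5%). The count above DMSO with ricolinostat was 2238 without ricolinostat replicate 1 and 2299 without replicate 2. These comparisons share the DMSO libraries, so their values are only set side by side. Leaving out 1 library moved the count of higher genes to 1221 without ricolinostat replicate 1, 1317 without ricolinostat replicate 2 and 1368 without panobinostat replicate 1. The count of lower genes moved to 1252 without ricolinostat replicate 2.

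**Figure D1:**
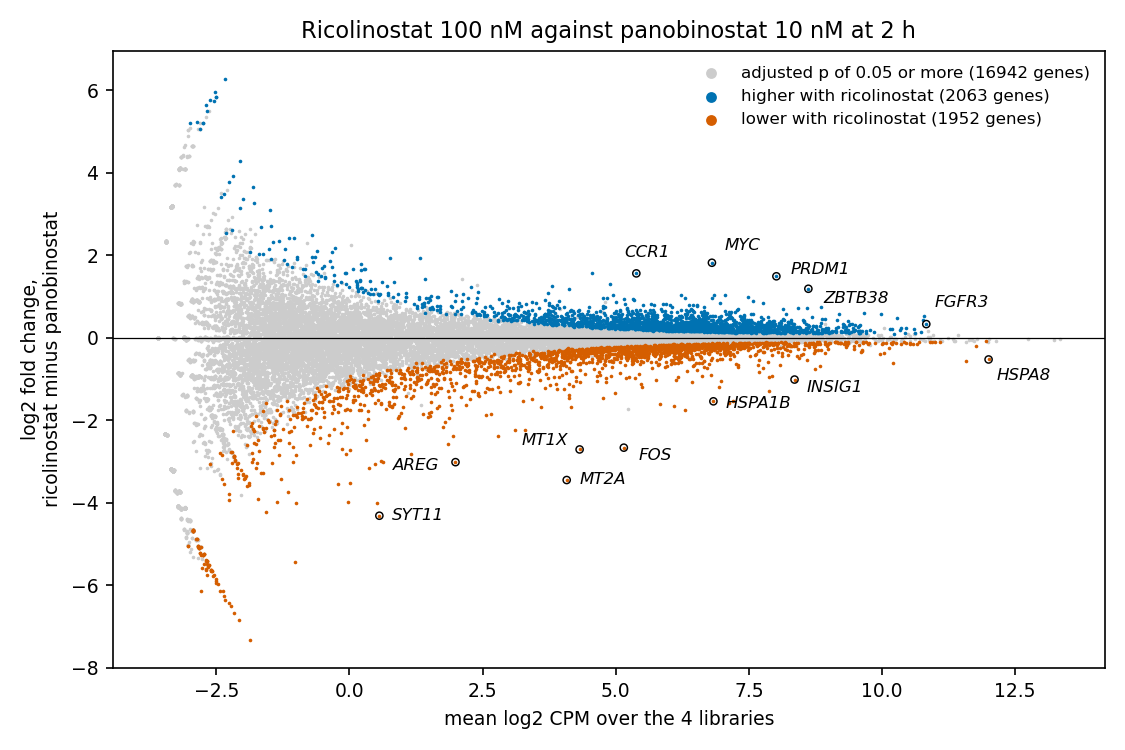
Each point is 1 of 20957 genes, with the mean log2 CPM of the 4 libraries at 2 h on the x axis and the log2 fold change of ricolinostat minus panobinostat on the y axis. Blue points (2063) were higher with ricolinostat and orange points (1952) lower, and grey points did not pass the adjusted p threshold of 0.05. The circled genes are described in the text. The lower side reaches further among the genes described in the text, with SYT11 at -4.32 against MYC at 1.82.

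MYC showed the largest excess with ricolinostat among protein-coding genes at 5 CPM or more that passed the test without overlap between libraries. MYC encodes the transcription factor that drives growth and ribosome synthesis in myeloma. Its level was 216 and 204 CPM with ricolinostat, 61.6 and 57.7 CPM with panobinostat and 448 and 432 CPM with DMSO. The ricolinostat libraries lay between the other groups without overlap. MYC was 3.53-fold higher with ricolinostat than with panobinostat (log2 1.82 ± 0.05 SE, adjusted p = 1.18e-54). Among 13 tested genes of MYC and its partners 3 were higher and 5 lower, with a median of -0.08. At 5 CPM or more, reached by 12 of the 13, 19.2% of all genes were higher and 14.8% lower. Without a single library the count of lower genes was 3 (panobinostat replicate 2 or ricolinostat replicate 1) or 2 (ricolinostat replicate 2). MXD1, which competes with MYC for its partner MAX, went the other way, at 32.4 and 31.6 CPM with ricolinostat, 56.5 and 61.1 CPM with panobinostat and 11.01 and 9.88 CPM with DMSO. MXD1 was 1.84-fold lower with ricolinostat than with panobinostat (log2 -0.88 ± 0.08 SE, adjusted p = 8.19e-15), and above DMSO in both groups. MGA, another MAX partner, was 1.75-fold higher with ricolinostat (log2 0.81 ± 0.07 SE, adjusted p = 6.56e-18).

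Among plasma cell and myeloma genes, those that differed were mostly higher with ricolinostat than with panobinostat. Of 33 tested, 14 were higher, 1 was lower and 18 did not pass the test, with a median log2 difference of 0.06. From DMSO, 20 of the 33 had fallen and 5 had risen with panobinostat (median -0.30), and 19 had fallen and 1 had risen with ricolinostat (median -0.26). PRDM1 encodes Blimp-1, the repressor that fixes the plasma cell state. It stood at 429 and 439 CPM with ricolinostat, 154 and 155 CPM with panobinostat and 516 and 514 CPM with DMSO. Ricolinostat replicates lay close below DMSO, and both panobinostat replicates lay far below them. PRDM1 was 2.81-fold higher with ricolinostat than with panobinostat (log2 1.49 ± 0.04 SE, adjusted p = 3.48e-52). XBP1, the transcription factor of secretory capacity, was at 594 and 596 CPM with ricolinostat, 361 and 352 CPM with panobinostat and 910.2 and 928 CPM with DMSO. The groups did not overlap, and XBP1 was 1.67-fold higher with ricolinostat (log2 0.74 ± 0.04 SE, adjusted p = 2.29e-32). The Ikaros family factors IKZF1 and IKZF3, the targets of lenalidomide-type drugs, were 1.38-fold and 1.46-fold higher (log2 0.47 ± 0.05 and 0.55 ± 0.06 SE, adjusted p = 5.38e-14 and 2.43e-12). IRF4, the factor on which myeloma cells depend, did not differ by this test. IRF4 stood at 1518 and 1483 CPM with ricolinostat, 1459 and 1472 CPM with panobinostat and 1767 and 1736 CPM with DMSO. Its log2 difference was 0.03 with a 95% interval of -0.03 to 0.10 (adjusted p = 0.587).

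**Figure D2:**
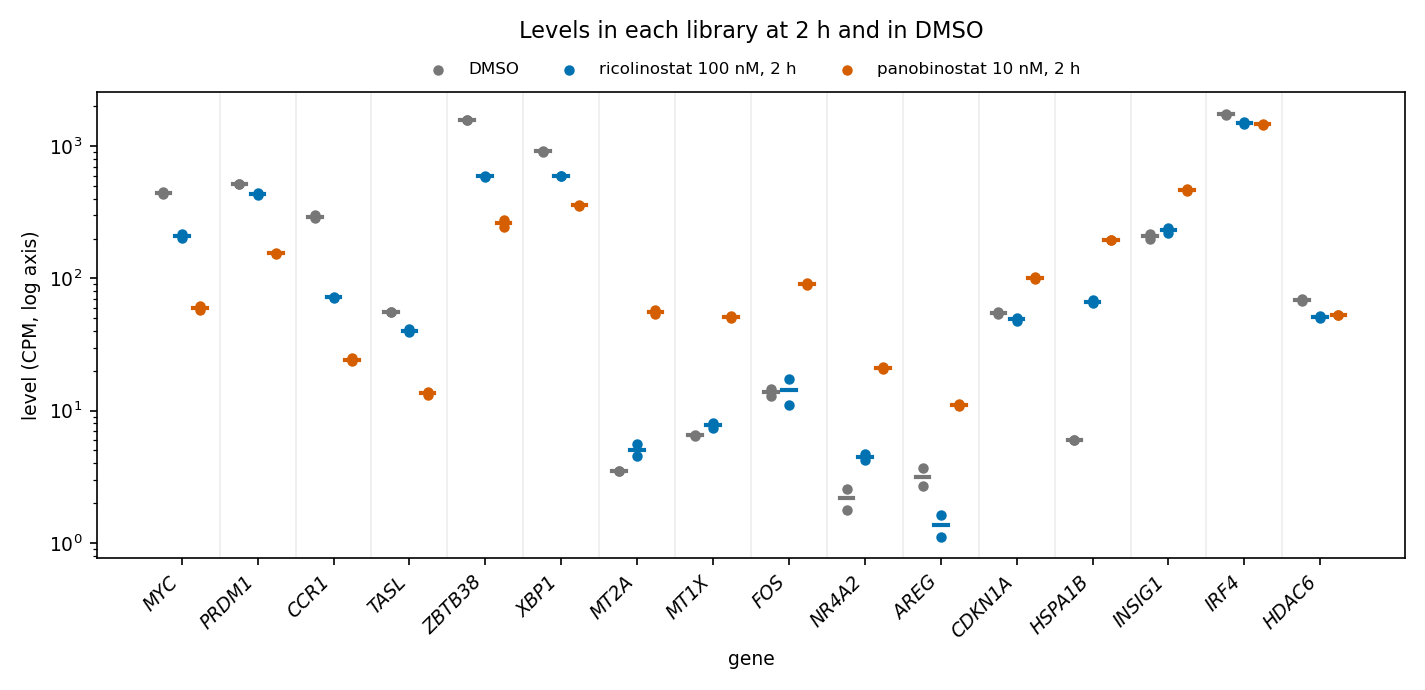
The level of 16 genes in CPM on a log axis in each library of DMSO (grey), ricolinostat 100 nM at 2 h (blue) and panobinostat 10 nM at 2 h (orange). Points are libraries and bars are group means of 2. From MYC to XBP1 the ricolinostat points lie above the panobinostat points, from MT2A to INSIG1 below them, and IRF4 and HDAC6 lie together. CDKN1A at 50.3 and 47.9 CPM with ricolinostat stays near DMSO.

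The remaining genes with the largest excess with ricolinostat included 2 chemokine receptors. CCR1, a receptor for CCL3 and related chemokines, was at 72.3 and 71.4 CPM with ricolinostat, 23.6 and 25.0 CPM with panobinostat and 301 and 287 CPM with DMSO. Its 3 groups were far apart, and CCR1 was 2.95-fold higher with ricolinostat than with panobinostat (log2 1.56 ± 0.06 SE, adjusted p = 6.93e-41). CCR2, the receptor for CCL2, was 2.15-fold higher at lower levels, 7.30 and 8.10 CPM against 3.25 and 3.87 CPM (log2 1.10 ± 0.17 SE, adjusted p = 9.28e-08). Of 20 tested chemokines, cytokines and receptors 5 were higher and 4 lower; the lower count was 2 without panobinostat replicate 1 or ricolinostat replicate 1. At 5 CPM or more, reached by 11 of the 20, 19.2% of all genes were higher and 14.8% lower. CCL3, a ligand of CCR1, was lower (log2 -1.02, adjusted p = 7.56e-05). TASL, an adaptor of endosomal Toll-like receptor signalling, was at 39.2 and 41.5 CPM with ricolinostat, 13.9 and 13.2 CPM with panobinostat and 55.9 and 55.3 CPM with DMSO. TASL with ricolinostat lay between DMSO and panobinostat, 2.99-fold above panobinostat (log2 1.58 ± 0.09 SE, adjusted p = 2.38e-30).

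ZBTB38, a zinc finger protein that binds methylated DNA, was the most abundant of this group. It stood at 589 and 598 CPM with ricolinostat, 246 and 275 CPM with panobinostat and 1574 and 1569.6 CPM with DMSO. All 3 groups were apart, and ZBTB38 was 2.28-fold higher with ricolinostat than with panobinostat (log2 1.19 ± 0.04 SE, adjusted p = 8.52e-31). The zinc finger factor ZFX stood at 27.6 and 25.1 CPM with ricolinostat and 10.7 and 12.3 CPM with panobinostat, 2.28-fold higher (log2 1.19 ± 0.10 SE, adjusted p = 2.33e-18). Coilin, the scaffold of Cajal bodies encoded by COIL, was 2.11-fold higher (log2 1.08 ± 0.11 SE, adjusted p = 6.78e-14). STBD1, which binds glycogen to membranes, was 2.40-fold higher (log2 1.26 ± 0.12 SE, adjusted p = 5.20e-16). TLCD3A, at 5.60 and 5.32 CPM against 2.50 and 2.45 CPM, was 2.201-fold higher (log2 1.14 ± 0.23 SE, adjusted p = 3.80e-05). Each of these 5 genes was below DMSO with panobinostat by the same test, with log2 changes from -2.59 (ZBTB38) to -1.57 (TLCD3A).

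On the lower side the metallothioneins MT2A and MT1X stood out by size. Metallothioneins are small cysteine-rich proteins that bind zinc and other metals, and their genes are switched on by the zinc-sensing factor MTF1. MT2A (ENSG00000125148, chr16:56608199-56609497, + strand in GRCh38) stood at 4.55 and 5.60 CPM with ricolinostat, 53.9 and 57.6 CPM with panobinostat and 3.47 and 3.47 CPM with DMSO. Ricolinostat replicates were near DMSO, and both panobinostat replicates were far above. MT2A was 10.9-fold lower with ricolinostat than with panobinostat (log2 -3.45 ± 0.18 SE, adjusted p = 5.98e-08). From DMSO it had risen by log2 4.01 ± 0.19 SE with panobinostat, and ricolinostat gave 0.55 ± 0.30 SE (adjusted p = 0.208). MT1X (ENSG00000187193, chr16:56682424-56684196, + strand) had the same order, at 7.43 and 8.10 CPM with ricolinostat, 52.1 and 49.8 CPM with panobinostat and 6.56 and 6.45 CPM with DMSO. MT1X was 6.55-fold lower with ricolinostat (log2 -2.71 ± 0.09 SE, adjusted p = 7.23e-49). MT1G, also tested, did not pass (log2 -1.15 ± 0.92 SE, adjusted p = 0.463). The metallothionein genes are near-identical copies of one another, and how reads shared between them were counted is not known here. Of 18 tested genes of metal handling 3 were higher and 4 lower. At 5 CPM or more, reached by 15 of the 18, 19.2% of all genes were higher and 14.8% lower. The zinc exporter SLC30A1, another gene that MTF1 switches on, was 1.28-fold lower (log2 -0.36 ± 0.05 SE, adjusted p = 1.93e-10), and the zinc importer SLC39A10 was 1.41-fold higher (log2 0.49 ± 0.07 SE, adjusted p = 5.86e-09). MTF1 itself did not pass the test (log2 -0.12, adjusted p = 0.134).

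The 250 bases upstream of the RefSeq start sites of both metallothioneins, which lie inside the gene spans given above, are shown because both genes differed together; they are RefSeq sequences of build GRCh38.p14 on the + strand, 5′ to 3′, with matches to the core of the metal response element (TGCACNC or TGCGCNC, either strand) in capitals.
MT2A chr16:56608334-56608583: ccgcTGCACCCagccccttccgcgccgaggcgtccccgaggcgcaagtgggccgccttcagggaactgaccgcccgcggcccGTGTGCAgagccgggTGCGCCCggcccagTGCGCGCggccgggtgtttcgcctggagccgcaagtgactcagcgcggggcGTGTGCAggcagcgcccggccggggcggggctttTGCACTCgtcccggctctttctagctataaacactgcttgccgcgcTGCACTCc
MT1X chr16:56682220-56682469: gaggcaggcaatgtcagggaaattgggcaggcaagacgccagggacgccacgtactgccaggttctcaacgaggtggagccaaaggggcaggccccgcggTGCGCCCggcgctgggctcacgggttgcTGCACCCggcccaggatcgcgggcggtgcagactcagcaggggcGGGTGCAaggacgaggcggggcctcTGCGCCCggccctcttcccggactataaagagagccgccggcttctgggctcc
The MT2A window held 7 matches and the MT1X window 4. Of 34788 promoter windows of the same length, 24.8% held at least 1 match, 0.368% at least 4 and 0.0316% at least 7. A match describes the letters only, and binding to them was not measured.

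Immediate-early genes, which cells switch on within minutes of a signal, were mostly lower with ricolinostat. Of 31 tested, 16 were lower and 4 higher, with a median of -0.43. From DMSO, 15 had risen and 9 had fallen with panobinostat (median 0.65), and 11 had risen and 8 had fallen with ricolinostat (median 0.11). FOS, a subunit of the AP-1 transcription factor, stood at 10.9 and 17.5 CPM with ricolinostat, 92.7 and 89.2 CPM with panobinostat and 12.8 and 14.6 CPM with DMSO. The ricolinostat libraries spanned the DMSO level and both panobinostat libraries were far above it. FOS was 6.35-fold lower with ricolinostat than with panobinostat (log2 -2.67 ± 0.16 SE, adjusted p = 3.56e-07). The nuclear receptor NR4A2 was at 4.72 and 4.21 CPM with ricolinostat, 20.7 and 21.2 CPM with panobinostat and 1.78 and 2.57 CPM with DMSO. Its ricolinostat level was above DMSO, and it was 4.71-fold below panobinostat (log2 -2.23 ± 0.13 SE, adjusted p = 1.27e-29). EGR1, a zinc finger factor of the same class of response genes, was at 1.57 and 1.23 CPM against 4.10 and 6.44 CPM and 3.82-fold lower (log2 -1.93 ± 0.25 SE, adjusted p = 1.23e-08). ZFP36, which destabilises mRNAs with AU-rich elements, was at 87.6 and 86.0 CPM with ricolinostat, 268 and 237 CPM with panobinostat and 44.9 and 44.1 CPM with DMSO. With ricolinostat ZFP36 lay above DMSO and 2.91-fold below panobinostat (log2 -1.54 ± 0.05 SE, adjusted p = 1.70e-42).

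AREG and RGS2 were also among the 10 largest falls of called protein-coding genes at 5 CPM or more without overlap. AREG encodes amphiregulin, a ligand of the EGF receptor, and stood at 1.62 and 1.11 CPM with ricolinostat, 11.2 and 10.8 CPM with panobinostat and 2.67 and 3.65 CPM with DMSO. Both ricolinostat libraries were below both DMSO libraries, and both panobinostat libraries were above. AREG was 8.11-fold lower with ricolinostat than with panobinostat (log2 -3.02 ± 0.16 SE, adjusted p = 9.35e-32). It had fallen from DMSO with ricolinostat (log2 -1.23 ± 0.20 SE, adjusted p = 2.34e-07) and had risen with panobinostat (log2 1.79 ± 0.13 SE, adjusted p = 4.40e-23). RGS2, which switches off G protein signals, was at 3.23 and 2.70 CPM with ricolinostat, 17.0 and 14.2 CPM with panobinostat and 3.30 and 2.53 CPM with DMSO, 5.24-fold lower (log2 -2.39 ± 0.14 SE, adjusted p = 8.41e-28).

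The upstream windows of AREG and FOS are shown as examples, chosen by hand together with those of EGR1 and RGS2. Size of the fall did not decide the choice: SYT11 and BAIAP3, among others, fell further than FOS and were not examined singly. The capitals mark the cyclic AMP response element half-site TGACG on either strand, in RefSeq sequence of GRCh38.p14, + strand, 5′ to 3′.
AREG chr4:74444886-74445135: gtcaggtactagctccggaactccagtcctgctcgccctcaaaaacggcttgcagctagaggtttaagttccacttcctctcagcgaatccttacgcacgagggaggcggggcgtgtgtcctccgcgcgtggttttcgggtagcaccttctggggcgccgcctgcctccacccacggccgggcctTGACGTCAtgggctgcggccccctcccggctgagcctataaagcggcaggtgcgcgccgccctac
FOS chr14:75278578-75278827: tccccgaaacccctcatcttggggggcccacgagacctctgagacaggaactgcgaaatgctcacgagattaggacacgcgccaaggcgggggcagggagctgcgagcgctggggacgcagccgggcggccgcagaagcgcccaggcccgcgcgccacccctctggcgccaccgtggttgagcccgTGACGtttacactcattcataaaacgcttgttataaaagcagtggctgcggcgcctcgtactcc
In AREG the 2 matches overlap as 1 palindrome, and FOS holds 1 match. The EGR1 window, not shown, held 2 matches and the RGS2 window 1. At least 1 match was found in 21.2% of the 34788 windows and at least 2 in 4.73%, and its part in the difference was not tested.

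The phosphatases and Sprouty proteins that brake MAP kinases moved both ways. Of 19 tested 5 were higher and 7 lower, with a median of 0.06. At 5 CPM or more, reached by 15 of the 19, 19.2% of all genes were higher and 14.8% lower. DUSP1, a nuclear phosphatase of stress kinases, was at 8.22 and 8.33 CPM with ricolinostat, 18.1 and 15.6 CPM with panobinostat and 10.8 and 12.6 CPM with DMSO and 2.03-fold lower with ricolinostat than with panobinostat (log2 -1.02 ± 0.12 SE, adjusted p = 2.16e-10). DUSP10 was 2.24-fold lower (log2 -1.16 ± 0.10 SE, adjusted p = 2.09e-17). Both genes had fallen from DMSO with ricolinostat (log2 -0.51 and -0.49) and had risen with panobinostat (log2 0.51 and 0.67). DUSP4, a phosphatase of ERK, was at 79.7 and 76.3 CPM with ricolinostat, 46.6 and 42.6 CPM with panobinostat and 149 and 141 CPM with DMSO, 1.75-fold higher with ricolinostat (log2 0.81 ± 0.06 SE, adjusted p = 1.62e-21). A list of Kruppel-like factors that also holds SP1, SP2, SP3 and SP4 divided too, with 6 of 20 higher and 5 lower. Here 15 of the 20 reached 5 CPM, where the same shares of all genes apply. SP1 and SP3 were among the higher genes (log2 0.43 and 0.36). Without panobinostat replicate 2 the lower count was smaller. KLF2, a regulator of lymphocyte quiescence, was at 50.9 and 51.8 CPM with ricolinostat, 100.1 and 99.6 CPM with panobinostat and 77.3 and 76.1 CPM with DMSO. Ricolinostat lay below DMSO and panobinostat above it, with KLF2 1.95-fold lower (log2 -0.96 ± 0.05 SE, adjusted p = 3.77e-30). KLF6 was 1.45-fold higher (log2 0.53 ± 0.05 SE, adjusted p = 7.56e-16).

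A mixed list of CDK inhibitors and p53 targets, not all of which stop the cell cycle, was mostly lower with ricolinostat. Of 29 tested members 18 were lower and 4 higher, with a median of -0.48. From DMSO, 20 had risen and 3 had fallen with panobinostat (median 0.57), against 11 and 5 with ricolinostat (median 0.09). CDKN1A encodes p21, the CDK inhibitor that is the best-known gene induced by HDAC inhibitors. It stood at 50.3 and 47.9 CPM with ricolinostat, 98.5 and 103 CPM with panobinostat and 55.6 and 54.1 CPM with DMSO. Both ricolinostat libraries were below both DMSO libraries, and panobinostat was above. CDKN1A was 2.05-fold lower with ricolinostat than with panobinostat (log2 -1.04 ± 0.05 SE, adjusted p = 1.16e-31). Its change from DMSO was -0.16 ± 0.06 SE with ricolinostat (adjusted p = 0.0220) and 0.88 ± 0.05 SE with panobinostat (adjusted p = 5.31e-28). CDKN2B, the p15 inhibitor, was at 15.1 and 17.6 CPM with ricolinostat, 41.7 and 48.4 CPM with panobinostat and 6.82 and 6.19 CPM with DMSO, 2.75-fold lower (log2 -1.46 ± 0.09 SE, adjusted p = 1.80e-26). GADD45B, a stress protein of growth arrest, was at 81.6 and 80.3 CPM with ricolinostat, 252 and 229.9 CPM with panobinostat and 78.0 and 78.5 CPM with DMSO. Ricolinostat left it near DMSO, and it was 2.97-fold lower than with panobinostat (log2 -1.57 ± 0.05 SE, adjusted p = 1.51e-51). TIGAR, a phosphatase that lowers glycolysis, was 3.19-fold lower (log2 -1.68 ± 0.12 SE, adjusted p = 1.38e-23). The exception of size was CDKN1B, which encodes the CDK inhibitor p27, with a log2 difference of 1.03 (adjusted p = 4.45e-33).

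The pro-apoptotic genes called were mostly lower with ricolinostat, while the anti-apoptotic genes called moved both ways. Of 14 pro-apoptotic BCL2 family genes 5 were lower and 1 was higher, with a median of -0.27. BBC3, which encodes the BH3-only protein PUMA, was at 2.19 and 1.23 CPM with ricolinostat, 5.80 and 8.01 CPM with panobinostat and 0.805 and 1.27 CPM with DMSO, 4.10-fold lower with ricolinostat than with panobinostat (log2 -2.04 ± 0.22 SE, adjusted p = 1.02e-12). BCL2L11, which encodes BIM, was at 71.3 and 68.7 CPM with ricolinostat, 118 and 124 CPM with panobinostat and 58.1 and 57.4 CPM with DMSO. Ricolinostat lay between DMSO and panobinostat, 1.73-fold below the latter (log2 -0.79 ± 0.06 SE, adjusted p = 9.94e-23). NOXA, encoded by PMAIP1, was 1.52-fold lower (log2 -0.60 ± 0.14 SE, adjusted p = 3.01e-04). Of 10 anti-apoptotic genes 4 were higher and 2 lower, with a median of 0.16; the higher count was 2 without ricolinostat replicate 1. MCL1, the survival protein on which most myeloma cells rely, was at 911 and 929 CPM with ricolinostat, 1177 and 1212 CPM with panobinostat and 672 and 665 CPM with DMSO. It had risen from DMSO in both groups and was 1.30-fold lower with ricolinostat than with panobinostat (log2 -0.38 ± 0.04 SE, adjusted p = 5.61e-16). BIRC6, a very large inhibitor of apoptosis, was 1.26-fold higher (log2 0.33 ± 0.05 SE, adjusted p = 6.61e-09).

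Most genes of the HSP70 and HSP90 list had risen from DMSO in both groups, and those that differed were mostly lower with ricolinostat. The list also holds 2 heat shock factors and chaperones of the endoplasmic reticulum and mitochondria. Of its 22 genes 9 were lower and 1 was higher (median -0.16). From DMSO, 14 of the 22 had risen with panobinostat and 13 with ricolinostat. HSPA1B, an inducible HSP70, stood at 64.8 and 68.8 CPM with ricolinostat, 194 and 196 CPM with panobinostat and 6.01 and 6.04 CPM with DMSO. The ricolinostat level was far above DMSO and 2.92-fold below panobinostat (log2 -1.54 ± 0.06 SE, adjusted p = 1.14e-39). Its near-identical copy HSPA1A had log2 -1.68 ± 0.17 SE (adjusted p = 1.15e-14), and reads of the pair may be split between them. HSPA8, the constitutive HSP70, was at 3341 and 3498 CPM with ricolinostat, 4832 and 5031 CPM with panobinostat and 1965 and 1986 CPM with DMSO, 1.44-fold lower (log2 -0.53 ± 0.03 SE, adjusted p = 1.41e-26). HSP90AA1, the inducible HSP90, was at 2487 and 2527 CPM with ricolinostat, 3724 and 3705 CPM with panobinostat and 2474 and 2453 CPM with DMSO. Its change from DMSO with ricolinostat did not pass the test (log2 0.03, adjusted p = 0.631), and it was 1.48-fold below panobinostat (log2 -0.57 ± 0.03 SE, adjusted p = 7.40e-29). Among 31 DNAJ, BAG and small heat shock proteins 10 were lower and 4 higher; the lower count was 6 without panobinostat replicate 1 and the higher count 1 without ricolinostat replicate 1. DNAJB1, the partner of HSP70, was at 211 and 222 CPM with ricolinostat, 337 and 351 CPM with panobinostat and 96.3 and 94.0 CPM with DMSO, 1.59-fold lower (log2 -0.67 ± 0.04 SE, adjusted p = 3.11e-26).

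Of 18 deacetylases and sirtuins 2 were higher and 6 lower (median -0.08). Among the 11 zinc-dependent HDACs, the enzyme class that hydroxamates bind, 2 were higher and 2 lower, HDAC3 (log2 -0.24) and HDAC5 (log2 -0.18). Of the 7 sirtuins, which use NAD and lack a catalytic zinc, 4 were lower. The largest fall was in SIRT4, a mitochondrial sirtuin (log2 -1.24, adjusted p = 3.65e-04). SIRT2 and SIRT3 passed narrowly (log2 -0.16 and -0.25, adjusted p = 0.0493 and 0.0375). Without panobinostat replicate 1 or ricolinostat replicate 2 the lower count of the whole list was 2. HDAC6 stood at 52.1 and 49.8 CPM with ricolinostat, 52.5 and 52.5 CPM with panobinostat and 70.5 and 67.8 CPM with DMSO. The treated libraries lay together below DMSO, with a log2 difference of -0.04 and a 95% interval of -0.17 to 0.08 (adjusted p = 0.730). HDAC1 stood at 227 and 225 CPM against 210.3 and 206 CPM, and its difference of 0.12 ± 0.04 SE (adjusted p = 0.0352) did not pass when any single one of the 4 libraries was left out. HDAC7, a class IIa enzyme, was 1.37-fold higher with ricolinostat (log2 0.46 ± 0.06 SE, adjusted p = 2.27e-10). Of 34 subunits of the HDAC corepressor complexes 14 were higher and 2 lower, with a median of 0.10; the higher count was 8 without panobinostat replicate 1 or ricolinostat replicate 1 and 7 without ricolinostat replicate 2. SIN3A, the scaffold of 1 such complex, was at 262 and 254 CPM with ricolinostat, 193 and 212 CPM with panobinostat and 161 and 153 CPM with DMSO. It was highest with ricolinostat, 1.27-fold above panobinostat (log2 0.35 ± 0.05 SE, adjusted p = 4.99e-10), and above DMSO in both groups.

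Acetyltransferases, readers of acetyl-lysine and genes of the kinase P-TEFb with its regulators, taken as 1 list, were mostly higher with ricolinostat. CDK9, CCNT2, HEXIM2 and MEPCE of the P-TEFb part were among the genes called higher, and CCNT1, LARP7 and HEXIM1 were not called. HEXIM2 had a wide error (log2 1.89 ± 0.66 SE, adjusted p = 0.0305). MEPCE ranged from log2 0.38 to 0.79 over the alternatives tried. Of 27 genes 16 were higher and 1 was lower, with a median of 0.22; the higher count was 10 without panobinostat replicate 1. From DMSO, 20 of the 27 had fallen with panobinostat (median -0.41) and 13 with ricolinostat (median -0.18). EP300 encodes the acetyltransferase p300 and was at 164 and 168 CPM with ricolinostat, 101 and 110.0 CPM with panobinostat and 204 and 194 CPM with DMSO. The order was DMSO, ricolinostat, panobinostat from high to low, and EP300 was 1.57-fold higher with ricolinostat than with panobinostat (log2 0.65 ± 0.05 SE, adjusted p = 5.29e-22). Its paralogue CREBBP was at 179 and 179.5 CPM against 107 and 125 CPM, 1.54-fold higher (log2 0.63 ± 0.05 SE, adjusted p = 3.08e-20). HEXIM1, the inhibitor of the elongation kinase P-TEFb, did not pass the test (log2 -0.38 ± 0.15 SE, adjusted p = 0.0696), at 6.29 and 5.71 CPM with ricolinostat, 7.45 and 8.09 CPM with panobinostat and 5.25 and 4.06 CPM with DMSO.

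Of 27 histone genes tested 9 were lower and 0 higher by the edgeR test, with a median of -0.44; 0 were higher also at an unadjusted p under 0.05 and by DESeq2. The linker histone H1-2 was at 9.88 and 10.95 CPM with ricolinostat, 29.5 and 28.3 CPM with panobinostat and 11.6 and 9.32 CPM with DMSO. The ricolinostat libraries lay within the DMSO range, and H1-2 was 2.77-fold below panobinostat (log2 -1.47 ± 0.10 SE, adjusted p = 2.17e-23). H1-10, a linker histone whose mRNA is polyadenylated, was at 172 and 165 CPM with ricolinostat, 289 and 269 CPM with panobinostat and 152 and 153 CPM with DMSO, 1.66-fold lower (log2 -0.73 ± 0.05 SE, adjusted p = 9.03e-18). H2AX, the variant phosphorylated at DNA breaks, was 1.498-fold lower (log2 -0.58 ± 0.04 SE, adjusted p = 9.76e-21). Most mRNAs of replication-dependent histones lack a poly(A) tail, and the libraries were made from poly(A) RNA.

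Mitotic genes were higher with ricolinostat in 25 of 40 and lower in 2, with a median of 0.20. From DMSO, 25 had fallen and 4 had risen with panobinostat (median -0.30), and 17 had fallen and 12 had risen with ricolinostat (median -0.09). AURKA, a kinase of the spindle poles, was at 126 and 122 CPM with ricolinostat, 90.1 and 85.3 CPM with panobinostat and 158 and 166 CPM with DMSO, 1.42-fold higher with ricolinostat than with panobinostat (log2 0.50 ± 0.06 SE, adjusted p = 7.81e-12). CENPA, the histone of centromeres, was 1.53-fold higher (log2 0.61 ± 0.09 SE, adjusted p = 5.41e-08). CDC25A, the phosphatase that activates CDKs, was at 96.6 and 104 CPM with ricolinostat, 60.8 and 70.9 CPM with panobinostat and 85.4 and 85.6 CPM with DMSO. It was above DMSO with ricolinostat and below it with panobinostat, and 1.52-fold higher with ricolinostat than with panobinostat (log2 0.61 ± 0.07 SE, adjusted p = 5.82e-12). Ribosome biogenesis genes, all 50 at 5 CPM or more, divided. Against 19.2% higher and 14.8% lower among all genes at that level, 15 of 50 were higher and 8 lower (median 0.06). That higher count was 3 without ricolinostat replicate 1, 7 without ricolinostat replicate 2, 6 without panobinostat replicate 1 and 8 without panobinostat replicate 2. The lower count was 2 without ricolinostat replicate 2 and 5 without either panobinostat replicate. UBTF, an activator of RNA polymerase I, was 1.32-fold higher (log2 0.40 ± 0.05 SE, adjusted p = 4.80e-08), and the rRNA processing factor RRP9 was 1.54-fold lower (log2 -0.62 ± 0.06 SE, adjusted p = 6.27e-15).

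Most sterol synthesis genes had risen from DMSO in both groups and were mostly lower with ricolinostat than with panobinostat. Of 28 tested 17 were lower and 2 higher, with a median of -0.26; the higher count was 1 without either ricolinostat replicate. From DMSO, 21 had risen with panobinostat (median 0.68) and 20 with ricolinostat (median 0.40). INSIG1, which holds the sterol sensor SCAP in the endoplasmic reticulum, was at 243 and 219 CPM with ricolinostat, 459.7 and 474 CPM with panobinostat and 199 and 217 CPM with DMSO. Ricolinostat was close to DMSO and panobinostat far above, and INSIG1 was 2.02-fold lower (log2 -1.02 ± 0.04 SE, adjusted p = 7.19e-41). IDI1, an isomerase of the isoprenoid pathway, was at 123 and 126 CPM with ricolinostat, 199.9 and 193 CPM with panobinostat and 86.1 and 86.7 CPM with DMSO. All 3 groups were apart, and IDI1 was 1.58-fold lower with ricolinostat than with panobinostat (log2 -0.66 ± 0.04 SE, adjusted p = 8.55e-24).

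Genes of autophagy and lysosomes rose from DMSO in 20 of 39 with panobinostat and 20 of 39 with ricolinostat. Of the 39, 37 reached 5 CPM, a level at which 14.8% of all genes were lower and 19.2% higher with ricolinostat than with panobinostat. Between the treatments 8 were lower and 5 higher with ricolinostat (median -0.08); the higher count was 2 without panobinostat replicate 2 and 3 without ricolinostat replicate 2. MAP1LC3B, a protein of autophagosome membranes, was at 172 and 168 CPM with ricolinostat, 259 and 239 CPM with panobinostat and 109.8 and 106 CPM with DMSO, 1.46-fold lower (log2 -0.54 ± 0.05 SE, adjusted p = 2.11e-18). TFEB, the transcription factor of lysosome genes, was at 28.98 and 27.0 CPM with ricolinostat, 17.5 and 17.98 CPM with panobinostat and 20.1 and 21.02 CPM with DMSO. It was above both other groups with ricolinostat, 1.57-fold above panobinostat (log2 0.66 ± 0.10 SE, adjusted p = 1.65e-07). The lysosomal sialidase NEU1 was 1.63-fold lower (log2 -0.70 ± 0.04 SE, adjusted p = 1.29e-26).

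In the endoplasmic reticulum and stress response lists both directions occurred. Of 35 genes of folding and the unfolded protein response 12 were lower and 6 higher (median -0.05). At 5 CPM or more, reached by 33 of the 35, 14.8% of all genes were lower and 19.2% higher. The lower count was 7 without panobinostat replicate 1 or ricolinostat replicate 2, and the higher count 3 without panobinostat replicate 1 or either ricolinostat replicate. HERPUD1, a component of protein degradation from that compartment, was at 162 and 176 CPM with ricolinostat, 327 and 329 CPM with panobinostat and 176 and 177 CPM with DMSO. Ricolinostat was close to DMSO and 1.94-fold below panobinostat (log2 -0.96 ± 0.05 SE, adjusted p = 4.94e-35). ERN1, the stress sensor IRE1, was 1.44-fold lower (log2 -0.52 ± 0.06 SE, adjusted p = 1.61e-13), while EDEM3, which trims mannose from misfolded glycoproteins, was 1.49-fold higher (log2 0.58 ± 0.04 SE, adjusted p = 7.36e-25). Of 29 genes of the integrated stress response 10 were lower and 7 higher (median 0.05), and 25 reached 5 CPM, where the same shares of all genes apply. DDIT4, an inhibitor of the kinase mTORC1, was at 154 and 148 CPM with ricolinostat, 393 and 344 CPM with panobinostat and 169 and 153 CPM with DMSO, 2.44-fold lower with ricolinostat than with panobinostat (log2 -1.29 ± 0.05 SE, adjusted p = 2.64e-42). The transcription factor CEBPG was 1.58-fold higher (log2 0.66 ± 0.08 SE, adjusted p = 1.26e-11).

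Clock genes were lower in 5 of 21 and higher in 4, with a median of -0.07. At 5 CPM or more, reached by 16 of the 21, 14.8% of all genes were lower and 19.2% higher. PER1, a repressor of the clock, was at 88.2 and 87.7 CPM with ricolinostat, 183 and 179.6 CPM with panobinostat and 23.4 and 26.2 CPM with DMSO. The ricolinostat level was above DMSO, and PER1 was 2.06-fold below panobinostat (log2 -1.04 ± 0.06 SE, adjusted p = 1.76e-31). CRY2, another repressor, was 1.504-fold lower (log2 -0.59 ± 0.07 SE, adjusted p = 2.30e-11), and CLOCK, an activator, was 1.39-fold higher (log2 0.48 ± 0.09 SE, adjusted p = 1.52e-05). Interferon-stimulated genes were lower in 12 of 33 and higher in 1 (median -0.49), and 11 of the 33 reached 5 CPM. OASL, a protein that promotes antiviral signalling, was at 2.88 and 2.18 CPM with ricolinostat, 8.16 and 7.59 CPM with panobinostat and 1.78 and 1.57 CPM with DMSO, 3.11-fold lower (log2 -1.64 ± 0.16 SE, adjusted p = 5.81e-15). Of 27 NF-kB subunits and inhibitors 24 reached 5 CPM, a level at which 19.2% of all genes were higher and 14.8% lower. Among the 27, 6 were higher and 5 lower (median 0.02). The higher count was 3 and the lower count 3 without panobinostat replicate 1, and the lower count was 3 without ricolinostat replicate 1. BCL3, an atypical inhibitor protein, was at 55.9 and 54.8 CPM with ricolinostat, 30.1 and 28.8 CPM with panobinostat and 53.02 and 53.8 CPM with DMSO. With ricolinostat it was close to DMSO and 1.88-fold above panobinostat (log2 0.91 ± 0.08 SE, adjusted p = 6.01e-18). TNFAIP3, the deubiquitinase A20, was 1.64-fold lower (log2 -0.72 ± 0.15 SE, adjusted p = 1.65e-04).

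Neuronal genes are silent in most blood cells and include genes that HDAC-containing repressors keep off. Of 22 tested 5 were lower and 0 higher by the edgeR test (median -0.09), and 0 were higher at an unadjusted p under 0.05 or by DESeq2; the lower count was 3 without panobinostat replicate 2 or ricolinostat replicate 1 and 2 without ricolinostat replicate 2. SYT11, of the synaptotagmin family of vesicle proteins, had the largest fall among the protein-coding genes named by size. It stood at 0.350 and 0.238 CPM with ricolinostat, 4.95 and 6.71 CPM with panobinostat and 0.508 and 0.224 CPM with DMSO. Ricolinostat left it near DMSO, and SYT11 was 19.9-fold below panobinostat (log2 -4.32 ± 0.24 SE, adjusted p = 1.98e-29). BAIAP3, which acts in vesicle release, was at 0.350 and 0.278 CPM with ricolinostat, 5.33 and 4.98 CPM with panobinostat and 0.296 and 0.224 CPM with DMSO. It was 16.2-fold lower (log2 -4.02 ± 0.29 SE, adjusted p = 2.03e-22). TUBB3, the neuronal beta tubulin, was at 0.306 and 0.119 CPM with ricolinostat, 3.35 and 3.37 CPM with panobinostat and 0.0847 and 0.224 CPM with DMSO, 15.8-fold lower (log2 -3.98 ± 0.33 SE, adjusted p = 1.15e-18). UCHL1 did not differ by the test, with log2 -0.09 and a 95% interval of -0.18 to 0.01 (adjusted p = 0.218).

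Tubulin isotypes were higher in 4 of 20 and lower in 4, with a median of 0.04. At 5 CPM or more, reached by 12 of the 20, 19.2% of all genes were higher and 14.8% lower. The higher count was 2 without either panobinostat replicate, 0 without ricolinostat replicate 1 and 1 without ricolinostat replicate 2. TUBB4B, an abundant beta tubulin, was at 609 and 607 CPM with ricolinostat, 704 and 666 CPM with panobinostat and 600.4 and 610.0 CPM with DMSO, 1.13-fold lower (log2 -0.17 ± 0.04 SE, adjusted p = 1.40e-04). Proteasome subunits were higher in 2 of 38 and lower in 2 (median -0.02), shares below those of all genes, although 18 had risen from DMSO with panobinostat and 16 with ricolinostat. Without panobinostat replicate 1 or either ricolinostat replicate the lower count was 0, and without ricolinostat replicate 1 the higher count was 0 too. Other genes with large falls were SLC2A4, the insulin-responsive glucose transporter, FBXO32, a ubiquitin ligase subunit of muscle wasting, and TMEM169. SLC2A4 was at 1.31 and 1.55 CPM with ricolinostat, 9.48 and 7.90 CPM with panobinostat and 0.339 and 0.149 CPM with DMSO, 6.02-fold lower with ricolinostat than with panobinostat (log2 -2.59 ± 0.23 SE, adjusted p = 3.93e-17). FBXO32 was 5.20-fold lower (log2 -2.38 ± 0.22 SE, adjusted p = 1.44e-16), and TMEM169 7.03-fold lower (log2 -2.81 ± 0.29 SE, adjusted p = 1.14e-13). SLC2A4 and TMEM169 had risen from DMSO with ricolinostat too (log2 2.56 and 2.47).

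**Figure D3:**
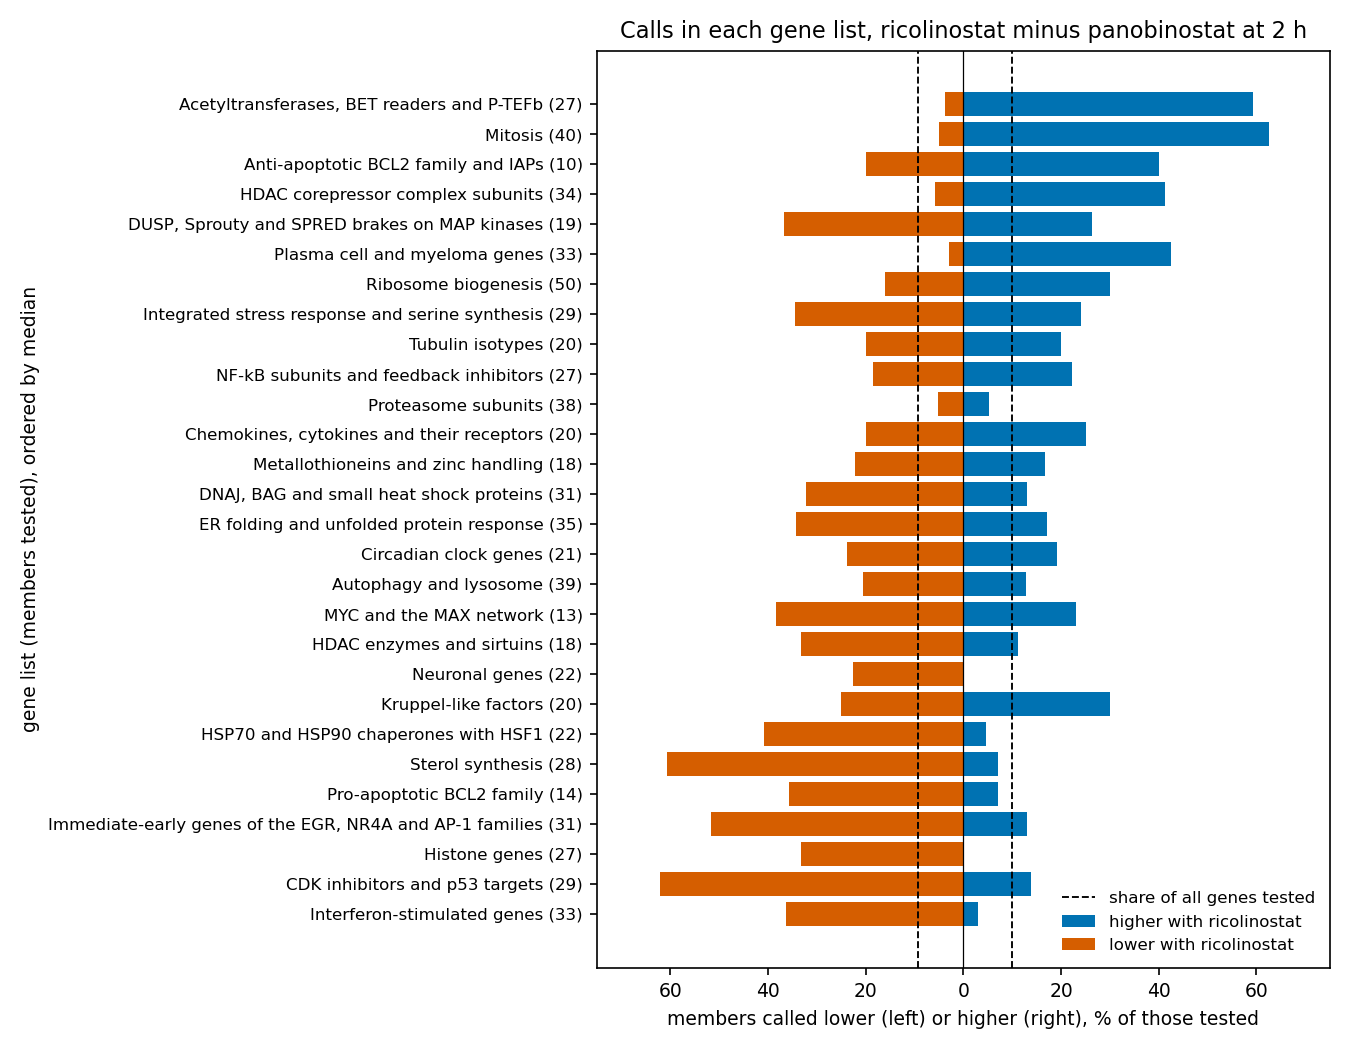
For each of 28 gene lists, the share of tested members (number in parentheses) that was lower with ricolinostat (orange, to the left) or higher (blue, to the right), in percent. Dashed lines mark the shares of all genes tested, 9.31% lower and 9.84% higher. Among genes at 5 CPM or more in a group the shares were 14.8% lower and 19.2% higher. For lists mostly at that level these are the closer reference. Lists are ordered by their median log2 difference; mitosis (25 of 40 higher) and acetyltransferases (16 of 27) extend furthest to the right, sterol synthesis (17 of 28) and CDK inhibitors (18 of 29) furthest to the left.

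Several counts of 1 or 2 genes rested on single libraries. The counts of lower corepressor and plasma cell genes and of higher HSP70 and HSP90 chaperones and interferon-stimulated genes were 0 without panobinostat replicate 1, the count of lower acetyltransferases was 0 without ricolinostat replicate 1 or panobinostat replicate 2, and the counts of higher deacetylases and lower mitotic genes were 1 without panobinostat replicate 1 or either ricolinostat replicate.

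The share of genes called also moved with transcript length. Among 9354 protein-coding genes at 5 CPM or more, the share called higher with ricolinostat was 7.80% in the fifth with the shortest transcripts and 30.7% in the fifth with the longest, and the share called lower was 17.3% and 10.97%. The median log2 difference ran from -0.05 to 0.08. The panobinostat replicates also differed from each other with length: replicate 1 minus replicate 2 had a median of 0.06 in the shortest group and -0.10 in the longest. Against panobinostat replicate 1 alone the ricolinostat mean differed by -0.08 in the shortest group and 0.13 in the longest, and against replicate 2 alone by -0.01 and 0.03. The ricolinostat replicates differed from each other by 0.01 and -0.02. The part of transcript length in the list counts, such as those of mitosis and of acetyltransferases with P-TEFb genes, was not tested.

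**Figure D4:**
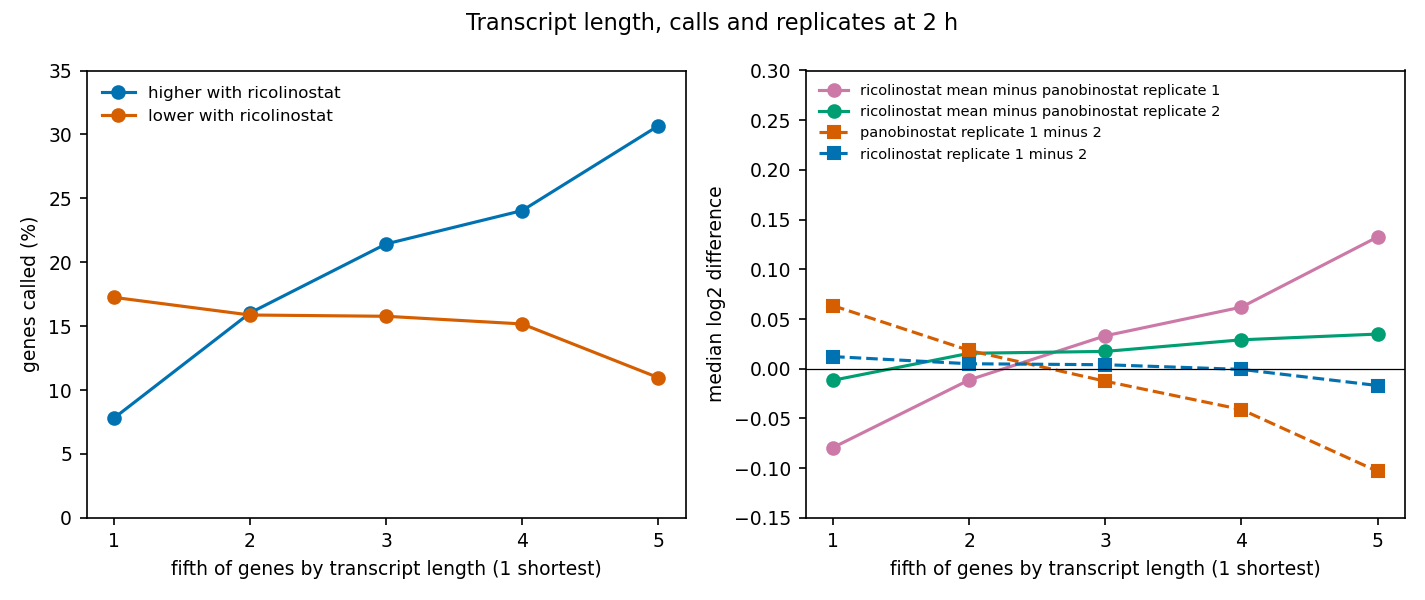
Left, the share of genes called higher (blue) or lower (orange) with ricolinostat in 5 equal groups of 9354 protein-coding genes ordered by their longest transcript, in percent. Right, median log2 differences in the same groups: the ricolinostat mean minus each panobinostat replicate (circles) and replicate 1 minus 2 within each treatment (squares). The share called higher climbs from 7.80% to 30.7%, and the slope is steeper against panobinostat replicate 1 than against replicate 2.

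At 5 h and 20 h the same treatments were compared in separate libraries. At 5 h 4932 genes were higher and 4921 lower with ricolinostat (23.5% each), and at 20 h 6714 were higher and 7704 lower (32.0% and 36.8%). A test of the change itself found that the difference at 5 h exceeded that at 2 h in the positive direction for 3154 genes and in the negative direction for 1992, together 24.6% of the genes. With library size in place of TMM scaling these counts were 2296 and 2569, so that 47.2% of the calls were in the positive direction against 61.3%. From 2 h to 20 h the counts were 5682 and 4724, together 49.7%, and with library size alone they were 4767 and 5797, so that the more frequent direction turned at both times. The median change over all genes from 2 h to 20 h was -0.07 with TMM scaling and -0.26 with library size alone.

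CCR1 stood at 2.11 and 1.68 CPM with panobinostat at 20 h and at 344 and 342 CPM with ricolinostat. Its log2 difference was 1.56 at 2 h, 3.56 at 5 h and 7.51 at 20 h. MYC went from 1.82 at 2 h to 3.23 and 5.31, and its ricolinostat libraries at 20 h were at 386 and 378 CPM, close to DMSO. The 10 genes with the smallest p for the change from 2 h to 5 h included several with small differences at 2 h. FGFR3, the receptor kinase overexpressed in this line, differed by 0.33 at 2 h, 1.47 at 5 h and 3.43 at 20 h. TNFRSF17, which encodes the plasma cell receptor BCMA, differed by 0.29, 1.96 and 7.76, and stood at 225 and 226 CPM with ricolinostat and 0.861 and 1.17 CPM with panobinostat at 20 h. CUL1, the scaffold of SCF ubiquitin ligases, went from 0.45 to 2.16 and 4.59. On the lower side MT2A went from -3.45 at 2 h to -4.73 and -7.22. At 20 h MT2A stood at 845 and 836 CPM with panobinostat and 5.56 and 5.71 CPM with ricolinostat. For HSPA1B and AREG the change of the difference from 2 h to 5 h did not pass the test (log2 -0.06 ± 0.09 and -0.28 ± 0.25 SE, adjusted p = 0.759 and 0.494).

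**Figure D5:**
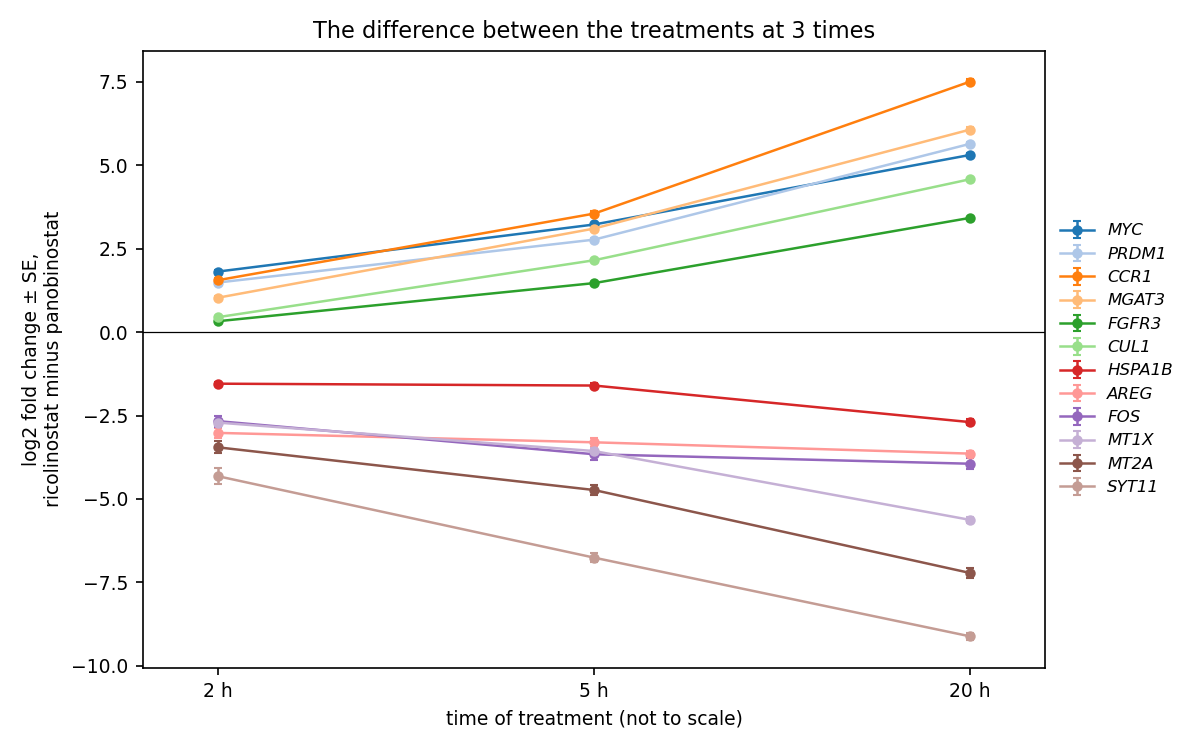
The log2 fold change of ricolinostat minus panobinostat, ± SE, for 12 genes at 2 h, 5 h and 20 h (axis not to scale). Values above 0 are higher with ricolinostat. The 6 upper genes lie between 0.33 and 1.82 at 2 h and between 3.43 and 7.51 at 20 h, and SYT11 reaches -9.12.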

How the data were processed

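The authors deposited 1 table of raw read counts per Ensembl gene ID, with 78932 IDs and 20 libraries, all whole numbers. Per the labels' protocols, poly(A) RNA was made into strand-specific libraries and sequenced as paired reads of 100 bases. HISAT2, SAMtools, featureCounts and GRCh38 are named in the submitters' processing notes. Which gene annotation was counted, with which strand option, and whether a pair counted once is not given in the sources used. Symbols were found for 42179 IDs, and gene types and positions come from GENCODE release 29, which held 57356 of the IDs.

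Counts were fitted with edgeR 4.0.16 (R 4.3.3): 20957 genes passed filterByExpr (minimum count 10), scaling was TMM, and the robust quasi-likelihood model had a term for each of 10 groups over all 20 libraries. Benjamini-Hochberg adjusted p-values cover all genes tested, with a threshold of 0.05. The SE of a log2 difference was taken from the difference and its F value, and n is 2 libraries a group throughout. CPM uses the TMM-scaled totals, except for the marker sums, which use total counts. The groups came from the sample titles. The named genes are a panel, the 10 largest changes each way among called protein-coding genes at 5 CPM or more whose libraries did not overlap, up to 4 members per list at 5 CPM or more with the largest change, and the 10 with the smallest p for the change from 2 h to 5 h; not all of them are described. BCL6, BIRC3, CCL3, CCNT1, CCNT2, CDK9, CDKN1B, HDAC3, HDAC5, HEXIM2, LARP7, MT1G, MTF1, SIRT2, SIRT4 and SP3 were added after their values were seen. The members and lists were chosen with earlier results of these data known. The fit was also run on simulated counts in which few genes changed and both groups had the same spread. The data differ in both respects, so that run cannot vouch for the calls here. The alternatives tried were other scaling, no filter, DESeq2 1.42.0, fewer libraries in the fit, no robust estimation, the replicate number as a block, and leaving out each library in turn.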

Additional observations from a re-analysis of the deposited data

Results flagged for a closer look

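The results here were picked out because the difference between ricolinostat and panobinostat itself changed between 2 h and a later time in a test of that change (edgeR quasi-likelihood test, adjusted p under 0.05). It moved in the positive direction for 3154 genes and in the negative direction for 1992 between 2 h and 5 h, and for 5682 and 4724 genes between 2 h and 20 h. With library size in place of TMM scaling the counts were 2296 and 2569, and 4767 and 5797, so that the more frequent direction turned at both times. The 2 h, 5 h and 20 h libraries are separate.

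Among the genes higher with ricolinostat at 2 h, the log2 difference at 5 h exceeded that at 2 h by 2.00 for CCR1, by 1.41 for MYC and by 1.29 for PRDM1. Among the 10 genes with the smallest p for this change, the excess at 5 h over 2 h was 1.67 for TNFRSF17, 1.50 for SDC1, 1.14 for FGFR3 and 1.24 for CCND2, which encodes cyclin D2. Of the other genes with the smallest p, MGAT3, a glycosyltransferase of N-glycans, moved by 2.07, and CUL1 by 1.71. TMEM132E moved by 1.60 and IRAG2 by 1.57. RHOBTB3 and ASB2, a substrate receptor of a ubiquitin ligase, each moved by 1.48. Among the genes lower with ricolinostat at 2 h the difference grew by -2.44 for SYT11, -1.28 for MT2A, -0.99 for FOS and -0.85 for MT1X.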

How the results depend on the processing

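Leaving out 1 library in turn, which leaves 1 sample in a group and assumes that it varies like the others, gave 1221 to 1680 higher and 1252 to 1572 lower genes between ricolinostat and panobinostat at 2 h. The count at least 2-fold higher was 75 to 134 over the same fits, 81 with no filter and 68 with DESeq2. With ricolinostat against DMSO the count of higher genes was 2238 to 2757. The cause of these moves was not tested, beyond the smaller number of samples. Across the other settings tried at 2 h (scaling, filter, DESeq2, fewer libraries, no robust estimation), 46.6% to 54.6% of calls were higher with ricolinostat.

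Of 155 named genes 140 were called, 124 of them under all 12 alternatives, and 16 lost the call under at least 1, among them HDAC1 and AHNAK; 0 called genes reversed in these alternatives. Of those not called, 4 changed sign: IGLV3-25 to -0.16 without panobinostat replicate 2, IRF4 to -0.0022 without ricolinostat replicate 1, and MT-CO1 to 0.0805 and IGLC2 to 1.23 without panobinostat replicate 1. Over all 12 alternatives these 4 genes spanned -0.16 to 0.32, -0.0022 to 0.0471, -0.20 to 0.0805 and -3.25 to 1.23. Of the 15 not called, 8 were called under at least 1 alternative: CBS under 5, MACF1 under 4, and IGLC2, IGLV3-25, MT-CO1, MYCN, TUBE1 and PSMD8 under 1 each. For BCL6, BIRC3, CCL3, CCNT1, CCNT2, CDK9, CDKN1B, HDAC3, HDAC5, HEXIM2, LARP7, MT1G, MTF1, SIRT2, SIRT4 and SP3 no single-gene values under the alternatives were taken. With the replicate number as a block, the counts at 2 h were 2060 and 1919, and 96.5% of the calls were kept. Same-numbered libraries did not deviate together (correlations of -0.12 to 0.08 over 45 pairs of groups). Whether they were grown or prepared together cannot be told from these correlations, and the batch is given as unknown. A group size of 2 limits the precision throughout.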

Other observations

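Several genes not described above had fallen from DMSO with ricolinostat and risen with panobinostat, each by the edgeR test. They were chosen after their values were seen. FAM43A stood at 40.2 and 37.2 CPM with ricolinostat, 123 and 119.8 CPM with panobinostat and 100.4 and 99.5 CPM with DMSO. The ricolinostat libraries were the low ones, and the log2 changes from DMSO were -1.37 with ricolinostat and 0.28 with panobinostat. RHOB, a small GTPase of endosomes, stood at 78.8 and 83.8 CPM with ricolinostat, 186 and 187 CPM with panobinostat and 123 and 118 CPM with DMSO. Its changes were -0.57 and 0.63. RGS1, a relative of RGS2, changed by -1.29 and 0.47. ID2, an inhibitor of basic helix-loop-helix factors, changed by -0.72 and 0.31. ATF3, a stress-induced transcription factor, stood at 5.64 and 7.02 CPM with ricolinostat, 19.1 and 16.9 CPM with panobinostat and 10.6 and 9.69 CPM with DMSO. HMOX1, the haem-degrading enzyme heme oxygenase, stood at 60.3 and 58.4 CPM with ricolinostat, 130.1 and 121 CPM with panobinostat and 67.7 and 78.1 CPM with DMSO. In both genes the panobinostat libraries were the highest and the ricolinostat libraries the lowest.

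Non-coding host genes of small RNAs differed as well, and were also chosen after their values were seen. MIR142HG, the host of a microRNA of blood cells, stood at 45.5 and 47.5 CPM with ricolinostat, 20.9 and 17.1 CPM with panobinostat and 56.3 and 59.1 CPM with DMSO. It was 2.46-fold higher with ricolinostat than with panobinostat (log2 1.30 ± 0.09 SE, adjusted p = 5.48e-24). MIR210HG, the host of a hypoxia-induced microRNA, was 2.92-fold lower (log2 -1.55 ± 0.15 SE, adjusted p = 9.55e-15). The snoRNA hosts SNHG5 and SNHG12 were 2.34-fold and 1.76-fold lower (log2 -1.23 ± 0.14 and -0.82 ± 0.06 SE, adjusted p = 4.08e-12 and 3.98e-22). GENCODE lists MIR142HG and SNHG12 as antisense to other genes, and the strand option of the counting is not known.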
